A study of Mus musculus with 18 samples.

Results

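Loss of the chromatin remodeller Chd4 in thymic epithelium was followed in RNA-seq libraries of sorted mouse medullary thymic epithelial cells (mTECs), 3 from Chd4 conditional knockout (cKO) mice and 3 from floxed controls, of 18 libraries in the study. All 6 came from C57BL/6x129P2 mice that carried Chd4 flox/flox. The cKO mice carried Foxn1-Cre as well, a recombinase expressed in thymic epithelium that also reaches cortical epithelial cells, whereas no Cre is given for the controls. By these labels, an effect of Cre itself cannot be told apart from one of the Chd4 deletion. Age, sex, the deleted exons and the number of mice behind a library are not given in the labels. The other 12 libraries were C57BL/6 mTECs labelled Aire KO or Fezf2 KO, with WT libraries for each. They are used only for levels and changes of the same genes within those experiments. Letters A, B and C stand for the 3 libraries within each group. All 21969 genes listed for this experiment entered, measured by reads in exons. Reads in introns are not reported here.

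Chd4 is the ATPase of NuRD, a complex that moves nucleosomes and removes acetyl groups from histones through its subunits Hdac1 and Hdac2. NuRD is best known for keeping genes quiet at promoters and enhancers, and it also acts at active enhancers, where it can dampen or sustain transcription. Medullary epithelial cells transcribe a large share of the genes of peripheral tissues for presentation to developing T cells, in part through Aire and Fezf2.

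The control libraries held 3571570, 4042400 and 4178824 exon reads and the cKO libraries 6946014, 17220157 and 4713401. A gene with 0 reads could still stand at up to 0.84 CPM (exon reads per 1000000 of the library's TMM-adjusted total) in the shallowest library and 0.174 CPM in the deepest, taking 3 reads as the floor. Of 10 markers that define mTECs all were present in every group, with a summed level of 15270 to 15650 CPM in the controls and 14710 to 15040 CPM in the cKO. Krt5 and Fezf2 were higher, Krt8, Aire and Foxn1 lower and 5 of the 10 did not pass. The summed level of 17 thymocyte genes was 234.6 to 253.4 CPM in the controls and 267.5 to 291.6 CPM in the cKO, that of 8 B cell genes 80.2 to 92.6 against 108.7 to 128.8 CPM, that of 14 dendritic cell and macrophage genes 1502 to 1737 against 986.8 to 1185 CPM, and that of 14 fibroblast and vessel genes 606.3 to 744.4 against 1024 to 1363 CPM. Of the 15 thymocyte genes tested 1 was higher, Cd247 (2 without cKO B or control B, with 1 lower without cKO B), and of the 8 B cell genes 1, Cd79b. Of 10 dendritic cell and macrophage genes 1 was higher and 4 lower (2 without cKO A, cKO B or any control), and of 10 fibroblast and vessel genes 3 were higher and 2 lower (0 or 1 without any 1 library). Single genes carried much of the last 2 sums. Lyz2 of the macrophage list averaged 1024 CPM in the controls and 541.7 CPM in the cKO, whereas Cd68 averaged 14.7 against 26.6 CPM. Of the fibroblast and vessel list Acta2 averaged 138.1 against 499.0 CPM and Rgs5 256.5 against 401.6 CPM, whereas Col3a1 averaged 45.2 against 21.9 CPM. No gene of these lists lacked reads in all libraries, but some that define such cells were near 0, such as Rag2 of thymocytes (0.16 against 0.65 CPM) and Cdh5 of endothelium (0.70 against 0.65 CPM). These levels moved with the groups, and their part in the results below was not tested. In control A the Y-linked genes summed to 157.6 CPM and in the other 5 libraries to at most 0.99 CPM, so 1 of 6 libraries carried a Y chromosome. The labels do not say how independent the triplicates are, and a p-value covers no more than the spread within these triplicates. In sorted bulk cells, fewer cells of a type and less RNA per cell cannot be told apart.

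The targeted gene was lowered but not lost. Reads over the exons of Chd4 (ENSMUSG00000063870, GRCm38 chromosome 6, 125095981 to 125130591, plus strand) stood at 55.4, 66.5 and 58.9 CPM in control libraries. They stood at 24.6, 27.5 and 30.2 CPM in the cKO, where each library was below each control. The difference was -1.14 on the log2 scale (SE 0.13, adjusted p = 1.59e-04 by edgeR's quasi-likelihood test). Which exons gave the remaining reads is not resolved by a count over the whole gene, and neither are cells in which the gene was not deleted.

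Across the transcriptome, similar numbers of genes went up and down, but the decreases were the deeper ones. Of 15182 genes that passed the filter on low counts, 2164 were higher (14.3%) and 2175 lower (14.3%) at an adjusted p under 0.05. At least 2-fold changes made up 727 of the higher and 1040 of the lower genes, and at least 4-fold changes 130 and 224. The median called increase was 1.69-fold and the median called decrease 1.96-fold, with a median log2 change of 0.00 over all genes tested. In 6721 genes (44.3%) the 3 libraries of one group all lay above those of the other. Over an equal 3571570 reads, 18427, 18549 and 18541 genes had a read in the controls and 18032, 18122 and 17830 in the cKO. The groups did not overlap, with 511 fewer genes on average in the cKO (exact permutation test, two-sided p = 0.1, the smallest that 3 against 3 allows). Without the Y-bearing library control A, 1635 of the higher and 1554 of the lower genes were still called, none in the opposite direction, and 1779 and 1700 were called in all.

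**Figure D1:**
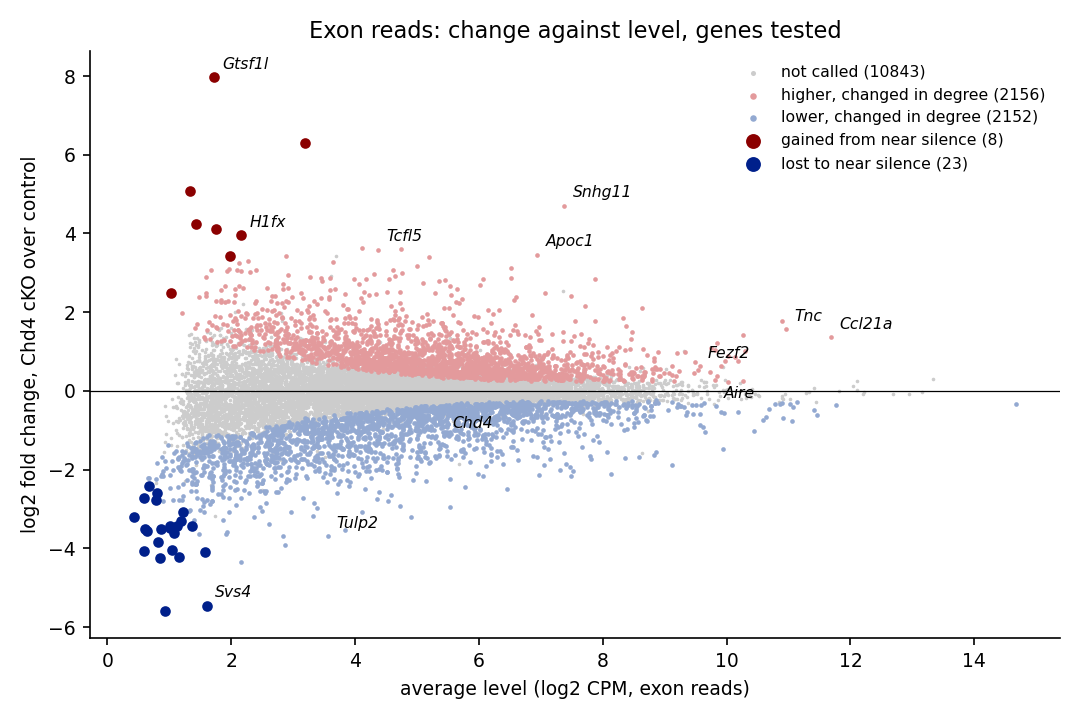
Each point is 1 of the 15182 genes tested, with its average level in log2 CPM of exon reads on the x axis and its log2 fold change, cKO over control, on the y axis. The 8 genes gained from near silence and the 23 lost to it sit at the low end of the level axis, and the 2156 higher and 2152 lower genes changed in degree span it.

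Genes near silence were few among the calls and lay in both directions. A called gene was taken as gained where its control mean was under 0.5 CPM and as lost where its cKO mean was, and as changed in degree otherwise. On that rule 8 genes were gained, 23 lost, 2156 higher in degree and 2152 lower in degree. These are descriptions: of 4173 rows near silence in the controls only 8 passed the filter, which a silent gene can do only through the other group, and all 8 were called. Of 4873 rows near silence in the cKO 24 passed and 23 were called. Without a filter on calls, 25 rows were near silence in the controls and at 2 CPM or more in the cKO, and 99 were the reverse, which include the Y-linked Eif2s3y, Ddx3y and Uty of control A. The limit sets the class of several genes. H1fx (0.469 CPM in the controls) and Fbxo27 (0.481) were just inside it, and Zfhx4 (0.503) and Fsd1 (0.523) just outside. On the lost side Khdc1a (0.495 CPM in the cKO) was just inside and Odf3l2 (0.526) just outside. The number of gained genes ran from 5 to 37 and that of lost genes from 1 to 175 over other limits, filters and tools.

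The 8 gained genes are described one by one, and no theme was tested over them. Of a separate list of testis and germ cell genes 8 were tested, with 1 higher and 4 lower. Gtsf1l (chromosome 2, 163087034 to 163087855), a relative of the piRNA factor Gtsf1, had 0 reads in the 3 controls and stood at 4.60, 5.51 and 3.43 CPM in the cKO. That is at least 19.4-fold higher, taking 3 reads over the control group as the floor (adjusted p = 6.69e-04). Dpep3, a membrane dipeptidase of the testis (chromosome 8, 105973520 to 105979419), stood at 0.281, 0 and 0 CPM in control libraries and at 3.02, 3.28 and 4.28 CPM in the cKO, 1 read against 97. The ratio was 39.8-fold, with a 95% interval of 6.98 to 1588 for counting error alone. Rhox2d, a homeobox gene of the reproductive cluster on the X chromosome (37493428 to 37497623), stood at 0.281, 0.247 and 0 CPM against 4.46, 3.69 and 2.36 CPM. Each cKO library of these genes lay above each control, which the way they were chosen largely fixes. The Rhox2 genes are near copies of each other, so that count is uncertain.

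The most abundant gained gene was a predicted one, 3830403N18Rik on the X chromosome, chosen here after its values were seen. It stood at 0, 0.495 and 0 CPM in the controls and at 17.4, 15.3 and 11.8 CPM in the cKO, 2 reads against 437, a ratio of 89.7-fold (95% interval 24.7 to 743 for counting error). H1fx, a linker histone gene with a single exon (chromosome 6, 87980421 to 87981637), stood at 1.41, 0 and 0 CPM against 5.89, 4.57 and 11.1 CPM (adjusted p = 0.0055). Fbxo27, an F-box protein of ubiquitin ligases (chromosome 7, 28692849 to 28699338), stood at 0, 0.247 and 1.20 CPM against 6.18, 5.39 and 5.14 CPM (3.42, SE 0.63, adjusted p = 0.00286). Nat3, an arylamine N-acetyltransferase, had the smallest fitted change of the 8, 2.48 (SE 0.73, adjusted p = 0.0276), and missed the threshold without control B (2.21, adjusted p = 0.0965) or control C (1.88, adjusted p = 0.079). The last of the 8, 4930502E18Rik, is X-linked too and went from 3 reads to 138. The X chromosome held 3 of the 8, and 19.1% of its 493 tested genes were higher against 14.3% of all. Of its 94 higher genes 72 were still called without control A. All 8 gained genes were still called without control A, 6 of them without cKO A or cKO B, and 7 without cKO C, control B or control C.

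The 23 lost genes included secreted and receptor genes of several organs. Svs4, a protein of seminal vesicle fluid (chromosome 2, 164275952 to 164278459), stood at 8.16, 6.43 and 7.18 CPM in control libraries and at 0.144, 0.059 and 0.428 CPM in the cKO (-5.45, SE 0.58, adjusted p = 1.11e-04). Defb23, a beta-defensin (chromosome 2, 152459055 to 152464620), went from 3.10, 5.94 and 4.31 CPM to 0, 0 and 0.428 CPM, 53 reads against 2. The ratio of reads was 64.6-fold (95% interval 17.0 to 547 for counting error). Every cKO library was below every control in these genes, again largely by the way they were chosen. Tmem212 (chromosome 3, 27866066 to 27896368) went from 5.35, 4.70 and 5.03 CPM to 0.431, 0.176 and 0.214 CPM (-4.22, SE 0.51, adjusted p = 2.42e-04). Cyp3a44, a cytochrome P450 of the liver, averaged 6.57 ± 3.66 CPM against 0.394 ± 0.538 (SD, n = 3 per group), and its near copies make that count uncertain. Ntrk2, the receptor of the neurotrophin BDNF, averaged 4.72 ± 2.56 against 0.213 ± 0.187 CPM, with control A at 7.60 and the other controls at 2.72 and 3.83 CPM. Also among the lost genes were Il3ra, the alpha chain of the interleukin-3 receptor (5.57 ± 1.13 to 0.453 ± 0.180 CPM), Slco1c1, a thyroid hormone transporter (4.52 ± 1.90 to 0.468 ± 0.371), Syce1l, a relative of a synaptonemal complex protein (4.75 ± 0.840 to 0.464 ± 0.340), and Sntn, a protein of the tips of motile cilia (4.25 ± 0.696 to 0.286 ± 0.328). Klhl4, a kelch-like protein on the X chromosome, went from 4.76 ± 0.687 to 0.350 ± 0.385 CPM.

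**Figure D2:**
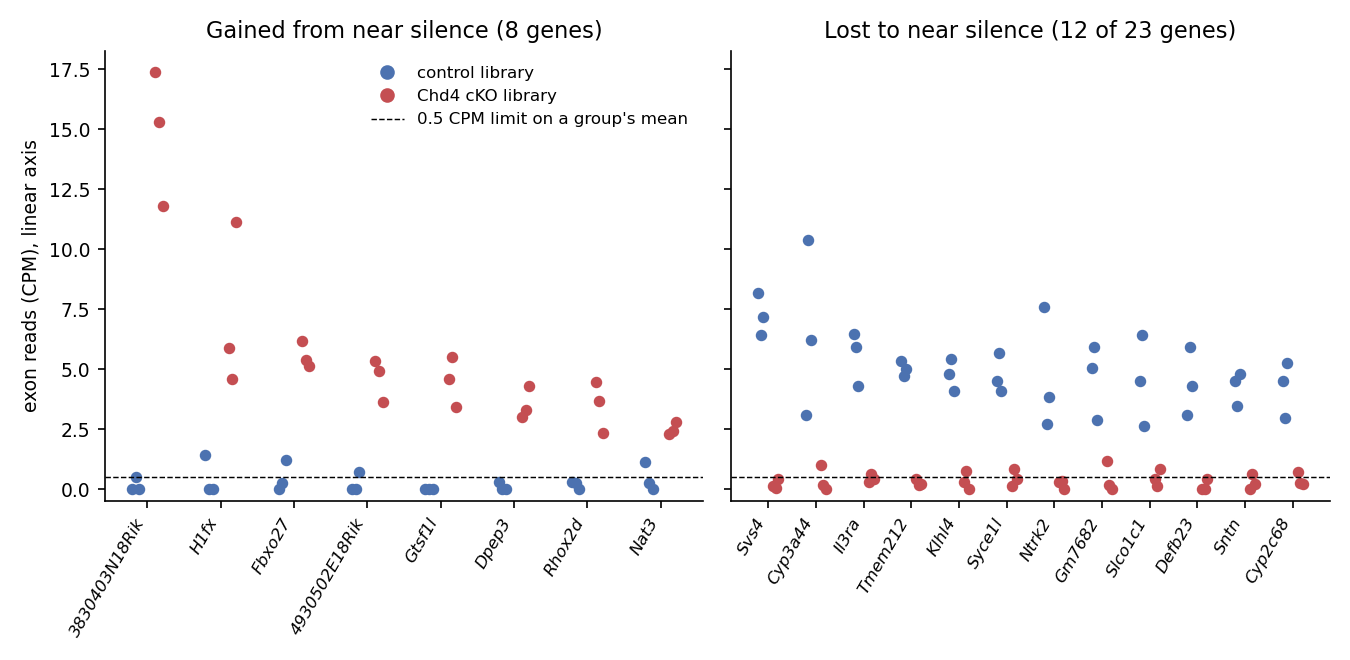
Points are libraries, with exon reads in CPM on a linear y axis and genes on the x axis, blue for controls and red for cKO, and a dashed line at the 0.5 CPM limit set on a group's mean. In every gene shown the 3 libraries of one group lie above those of the other, largely by choice of the genes, with 3830403N18Rik and H1fx the highest of the gained genes and Svs4 and Cyp3a44 of the lost ones by mean.

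Promoters of gained and lost genes are shown with their CpG content and a TATA motif, since both shares varied with the size of change over all called genes. They are RefSeq windows on GRCm38.p6, from 250 bases before to 50 after the start, written 5′ to 3′ with each CpG dinucleotide in capitals. The first 4 are gained genes, Tcfl5 is a higher gene that was already expressed, and the last 3 are lost genes. Their positions are chrX:56136322-56136621 (plus strand) for 3830403N18Rik, chrX:37493160-37493459 (plus strand) for Rhox2d, chr8:105979370-105979669 (minus strand) for Dpep3, chr7:28692894-28693193 (plus strand) for Fbxo27, chr2:180642642-180642941 (minus strand) for Tcfl5, chr2:164278258-164278557 (minus strand) for Svs4, chr3:27896319-27896618 (minus strand) for Tmem212 and chr2:152464571-152464870 (minus strand) for Defb23.
3830403N18Rik: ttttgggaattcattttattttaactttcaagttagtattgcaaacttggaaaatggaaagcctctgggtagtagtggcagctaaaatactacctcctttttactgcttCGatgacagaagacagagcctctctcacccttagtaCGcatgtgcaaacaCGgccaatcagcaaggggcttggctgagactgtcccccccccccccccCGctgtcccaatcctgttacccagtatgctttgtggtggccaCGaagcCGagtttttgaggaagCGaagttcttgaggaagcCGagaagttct
Rhox2d: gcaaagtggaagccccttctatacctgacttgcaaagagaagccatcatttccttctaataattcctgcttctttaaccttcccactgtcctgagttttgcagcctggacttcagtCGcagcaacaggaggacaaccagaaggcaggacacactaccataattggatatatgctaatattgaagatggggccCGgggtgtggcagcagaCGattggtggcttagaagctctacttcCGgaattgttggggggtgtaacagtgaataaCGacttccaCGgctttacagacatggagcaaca
Dpep3: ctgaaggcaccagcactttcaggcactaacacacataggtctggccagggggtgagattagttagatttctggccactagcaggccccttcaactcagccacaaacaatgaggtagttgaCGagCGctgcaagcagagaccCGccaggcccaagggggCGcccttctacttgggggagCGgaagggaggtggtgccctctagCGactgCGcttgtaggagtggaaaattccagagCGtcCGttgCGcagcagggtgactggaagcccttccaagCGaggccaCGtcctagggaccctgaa
Fbxo27: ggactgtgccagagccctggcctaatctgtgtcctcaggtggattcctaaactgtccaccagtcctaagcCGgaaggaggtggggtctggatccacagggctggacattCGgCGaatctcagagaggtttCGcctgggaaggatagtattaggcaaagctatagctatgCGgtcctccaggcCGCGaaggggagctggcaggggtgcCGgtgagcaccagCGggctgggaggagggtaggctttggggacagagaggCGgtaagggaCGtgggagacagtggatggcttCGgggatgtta
Tcfl5: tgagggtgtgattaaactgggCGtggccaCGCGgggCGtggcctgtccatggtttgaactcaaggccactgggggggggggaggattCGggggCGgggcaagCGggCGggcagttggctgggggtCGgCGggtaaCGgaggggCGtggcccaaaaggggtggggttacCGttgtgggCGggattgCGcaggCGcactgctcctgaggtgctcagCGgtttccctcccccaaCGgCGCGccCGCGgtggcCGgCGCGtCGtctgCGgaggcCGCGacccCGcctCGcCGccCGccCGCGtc
Svs4: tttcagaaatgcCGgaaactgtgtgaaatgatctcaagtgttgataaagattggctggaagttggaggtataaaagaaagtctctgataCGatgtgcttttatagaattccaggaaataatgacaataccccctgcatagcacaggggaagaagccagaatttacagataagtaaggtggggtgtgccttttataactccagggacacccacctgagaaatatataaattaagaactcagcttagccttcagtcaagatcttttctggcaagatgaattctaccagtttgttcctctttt
Tmem212: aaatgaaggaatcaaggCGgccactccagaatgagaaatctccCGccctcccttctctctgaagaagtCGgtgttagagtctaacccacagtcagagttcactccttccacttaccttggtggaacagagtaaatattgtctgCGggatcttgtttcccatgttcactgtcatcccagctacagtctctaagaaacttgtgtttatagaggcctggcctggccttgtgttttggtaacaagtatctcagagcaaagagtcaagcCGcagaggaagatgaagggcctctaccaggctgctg
Defb23: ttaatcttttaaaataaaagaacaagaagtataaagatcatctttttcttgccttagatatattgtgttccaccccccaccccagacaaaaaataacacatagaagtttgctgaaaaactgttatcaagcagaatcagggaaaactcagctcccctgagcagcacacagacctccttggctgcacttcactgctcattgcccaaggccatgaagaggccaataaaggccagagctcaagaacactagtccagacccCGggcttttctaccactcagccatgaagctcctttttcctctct

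The printed promoters of Dpep3 and Fbxo27 held 12 CpG each, those of 3830403N18Rik and Rhox2d 8 and 6, that of Tcfl5 35, and those of the lost Svs4, Tmem212 and Defb23 2, 5 and 1. A window was found for 5 of 8 gained genes, 17 of 23 lost genes and 11542 of all 15182 tested. None of the 5 gained and 3 of the 17 lost had an observed over expected CpG ratio of 0.6 or more, against 61.9% of all tested. The share fell with the size of change. Among higher genes it was 64.3% under 2-fold, 46.2% at 2 to 4-fold and 25.8% at 4-fold or more. Among lower genes it was 62.0%, 26.3% and 17.8%. Genes under 2-fold were thus near the share of all tested, and genes not called stood at 66.3%. The motif TATAAA, on either strand, stood in 0 of 5 gained and 5 of 17 lost windows, Svs4, Tmem212 and Defb23 among them. Among genes at least 4-fold lower it was in 23.3% of the windows, at 2 to 4-fold lower in 19.7%, under 2-fold lower in 10.5%, among those at least 4-fold higher in 5.2% (8.5% at 2 to 4-fold), and in 8.8% of all tested, with 13.6% over all 32851 windows of RefSeq. These shares were not tested, and the groups of genes were not matched for expression level.

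**Figure D3:**
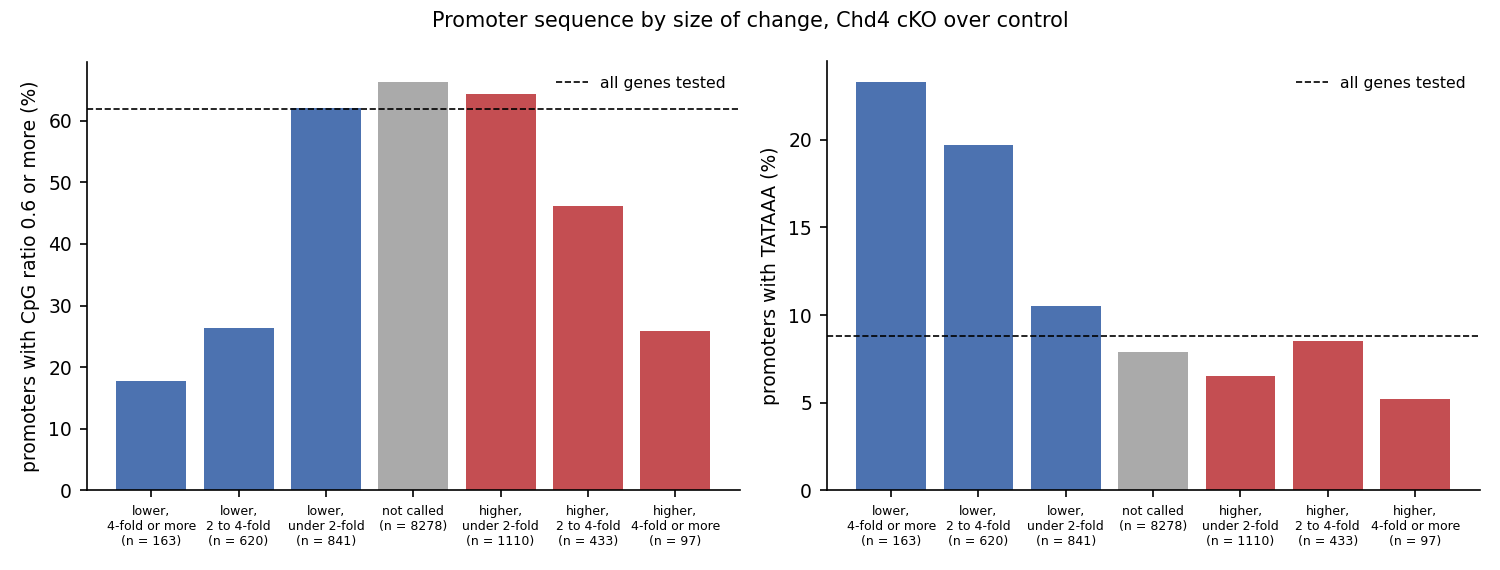
Bars give the percentage of promoter windows with an observed over expected CpG ratio of 0.6 or more (left) and with TATAAA on either strand (right), for genes grouped by the size of their change, blue for lower, grey for not called and red for higher, with a dashed line at all genes tested. CpG-rich windows fall from 64.3% to 25.8% with the size of an increase and from 62.0% to 17.8% with that of a decrease, and TATAAA windows rise from 10.5% to 23.3% with the size of a decrease and lie between 5.2% and 8.5% for increases.

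In the WT mTECs of the other experiments most lost genes reached 0.5 CPM and most gained genes did not. Their choice by level in the control mTECs of this experiment largely fixes that. In single libraries of the other experiments 3 reads stood at 0.506 to 0.762 CPM, above that level, and no share over all genes was taken. All 31 were in those tables. Of the 23 lost genes 19 reached a mean of 0.5 CPM in the WT libraries of the Aire experiment and 22 in those of the Fezf2 experiment. Of the 8 gained genes 2 and 3 did. Dpep3 had a mean of 0 CPM in all 4 of those groups. In the libraries labelled Aire KO 8 of the 23 lost genes reached that level, and in those labelled Fezf2 KO 22 did. Reads over Aire itself had a mean of 3941 CPM in the libraries labelled Aire KO against 2018 CPM in their WT. The labels do not name the deleted exons, so a count over the whole gene cannot show whether Aire was lost.

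Nearly all calls were changes in degree of genes already expressed, a split that the filter on low counts largely sets. The top genes changed in degree belong to no single tissue. Snhg11, a snoRNA host transcript of neurons (chromosome 2, 158375638 to 158386145), stood at 11.3, 8.41 and 16.5 CPM in control libraries and at 335.8, 381.0 and 229.3 CPM in the cKO, 26.1-fold higher (4.71, SE 0.25, adjusted p = 2.26e-06). Tcfl5, a basic helix-loop-helix factor of spermatocytes, went from 2.53, 2.97 and 3.11 CPM to 40.1, 31.7 and 32.8 CPM (3.59, SE 0.22, adjusted p = 5.16e-06). Apoc1, an apolipoprotein, went from at most 21.5 CPM in a control to 198.0, 233.3 and 233.6 CPM (3.46, SE 0.12, adjusted p = 3.64e-07). No library of one group reached the range of the other in these genes. Tcfl5 overlaps Col9a3 on the other strand, which was higher too (9.52 to 29.2 CPM, adjusted p = 0.0212), and without strand their reads cannot be told apart. Tnnc2, the troponin C of fast muscle, rose 12.3-fold, Xlr3a, of an X-linked family of near copies, 12.2-fold, the serine protease Prss41 10.8-fold, the calmodulin kinase Pnck 9.93-fold and the G protein subunit Gnb5 9.75-fold. Among abundant genes Ccl21a, a chemokine that draws CCR7-bearing thymocytes to the medulla, rose from 1846 ± 280 to 4741 ± 675 CPM. Near copies of Ccl21a make its count uncertain. Tnc, the matrix protein tenascin C, rose from 999.3 ± 31.2 to 2976 ± 277 CPM, and Msln, mesothelin, from 665.7 ± 154 to 1794 ± 286 CPM. Hspa1b, an inducible Hsp70, rose from 793.3 ± 111 to 1453 ± 477 CPM. H2-Q7, a class I histocompatibility gene with near copies, differed by 0.26 on the log2 scale (adjusted p = 0.0227) and missed the threshold without cKO B, cKO C, control A or control B (0.25 to 0.26, adjusted p = 0.0615 to 0.0674).

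The largest decreases in degree were again spread over organs. Alox5ap, which presents arachidonic acid for leukotriene synthesis (chromosome 5, 149264767 to 149288153), stood at 24.2, 22.0 and 40.4 CPM in control libraries and at 1.29, 3.81 and 1.29 CPM in the cKO (-3.53, SE 0.39, adjusted p = 1.43e-04). Tulp2, a tubby-like protein of the testis, went from 22.2, 27.2 and 23.7 CPM to 0.719, 2.58 and 1.93 CPM (-3.68, SE 0.34, adjusted p = 4.31e-05). Crisp3, a secreted cysteine-rich protein, went from 15.5 ± 4.06 CPM to 1.04 ± 0.462 CPM (-3.92, SE 0.38, adjusted p = 6.45e-05). The groups were far apart in each. Scgb3a2, an airway secretoglobin, was 20.2-fold lower, Zscan4c, a gene of the early embryo with near copies, 12.9-fold, the folate receptor gene Folr2 12.5-fold and Brinp1 10.4-fold. Mup19, a major urinary protein with many near copies, differed by -3.58 (adjusted p = 0.0214) but missed the threshold with DESeq2 (adjusted p = 0.213) and without cKO A, cKO B, control A or control B (-2.61 to -3.48, adjusted p = 0.0588 to 0.0675). Of the abundant genes Fcgbp, an IgG Fc binding protein, fell from 3416 ± 342 to 2236 ± 384 CPM, Ftl1, the ferritin light chain, from 3164 ± 133 to 2265 ± 69.2 CPM and Krt8, a keratin of simple epithelia, from 2463 ± 169 to 1844 ± 186 CPM. Cd74, the invariant chain of class II histocompatibility molecules, differed by -0.32 (adjusted p = 0.0123), and by -0.26 and -0.25 without cKO C or control A (adjusted p = 0.0569 and 0.0642). Eef1a1, a translation elongation factor, differed by -0.27 (adjusted p = 0.043), and missed the threshold with DESeq2 (-0.25, adjusted p = 0.0543), with no filter on low counts (-0.22, adjusted p = 0.0795), with at least 1 CPM in 3 libraries (-0.26, adjusted p = 0.0536) and without cKO A, cKO C, control A or control B (-0.17 to -0.30, adjusted p = 0.0647 to 0.143).

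**Figure D4:**
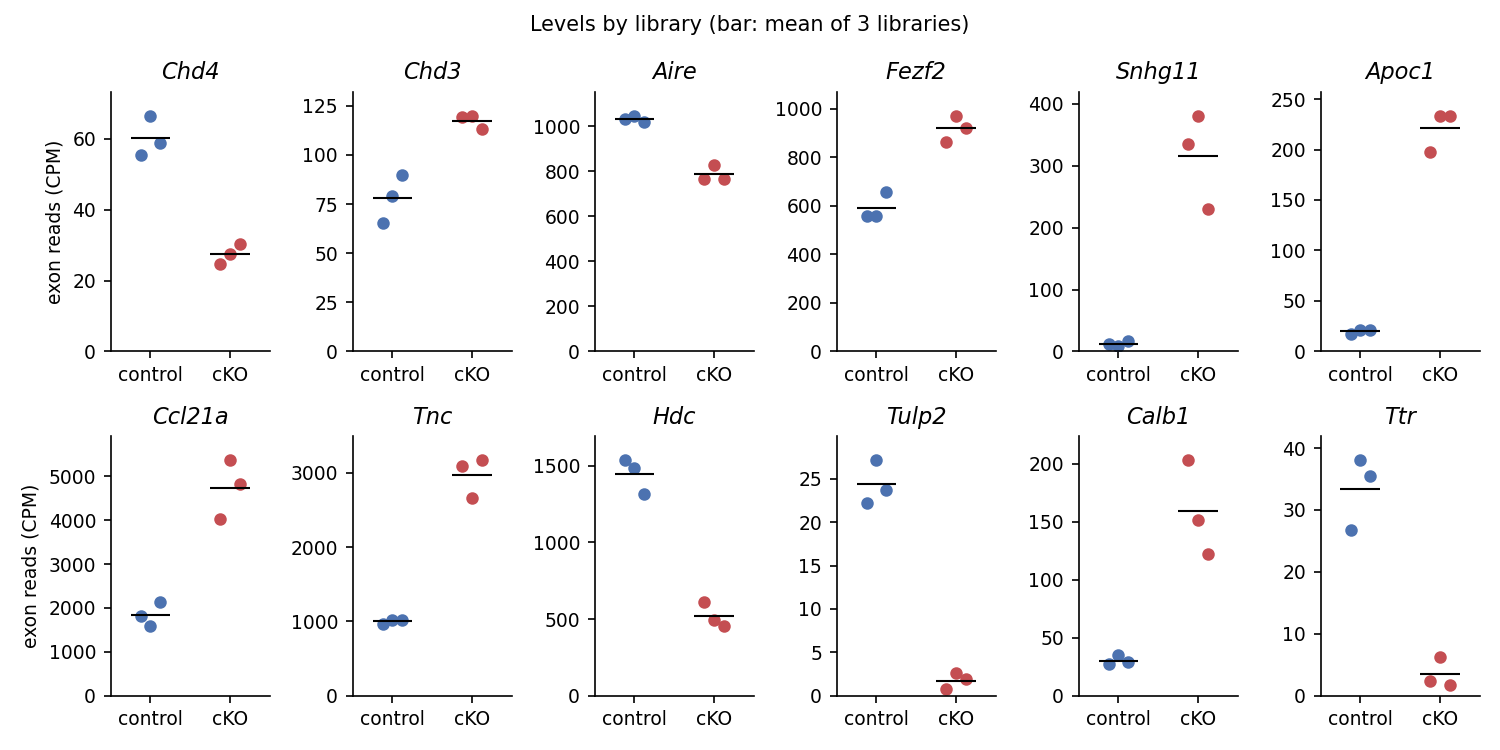
Each point is a library, blue for controls and red for cKO, with exon reads in CPM on a linear y axis from 0 and a bar at the mean of 3 libraries. Chd4, Aire, Hdc, Tulp2 and Ttr are lower in all 3 cKO libraries, and Chd3, Fezf2, Snhg11, Apoc1, Ccl21a, Tnc and Calb1 are higher in all 3.

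Several other subunits of NuRD were higher beside the lower Chd4. Of 15 genes of the complex, Chd4 itself included, 7 were higher and 2 lower, with a median log2 change of 0.43. This count and those of the lists that follow stand beside 14.3% higher and 14.3% lower of all genes tested, with a median of 0.00, and a share near these is not a result about a list. The 2 lower genes here, the targeted Chd4 among them, are at that share. Lists and members were chosen with earlier results of these data known, so their counts are descriptions. Chd5 (2.81, 1.73 and 1.68 CPM in the controls, 5.75, 6.39 and 6.42 CPM in the cKO) and Chd3 (65.3, 79.2 and 89.7 against 119.3, 120.0 and 113.1 CPM) encode the alternative ATPases of the complex. Chd5 rose by 1.58 (SE 0.36, adjusted p = 0.00879) and Chd3 by 0.59 (SE 0.12, adjusted p = 0.00424). The scaffold genes Gatad2a (0.79, adjusted p = 1.84e-04), Mta2 (0.49, adjusted p = 0.00183) and Mta3 (0.43, adjusted p = 0.0127) were higher too. The deacetylases Hdac1 (0.19, adjusted p = 0.533) and Hdac2 (-0.03, adjusted p = 0.825) did not pass, and the histone chaperone Rbbp7 was lower (-0.40, adjusted p = 0.00437). Of 14 other remodelling ATPases 4 were higher and 0 lower, among them Ep400 (0.60, SE 0.10, adjusted p = 0.00141), and 1 to 2 were without cKO C, control A or control C. Bmi1, a Polycomb RING partner, fell from 42.4 ± 10.6 to 17.3 ± 3.05 CPM (-1.27, adjusted p = 0.00127) among 21 silencing factors, of which 3 were higher, the share of all genes, 0 or 1 without cKO C or control C and 6 with no filter on low counts.

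Most tested genes of the immature mTEC state were higher, and most of the mature state did not pass. Of 12 genes of mTEC-lo cells, the low class II stage that includes precursors and Ccl21a-producing cells, 7 were higher and 3 lower (median 0.53), and 1 lower without cKO B, control B or control C. The basal keratins Krt5 (770.0, 726.5 and 743.2 against 1104, 1178 and 1500 CPM) and Krt14 (569.2, 561.5 and 491.7 against 655.3, 876.2 and 1152 CPM) were each higher in every cKO library. Itgb4, a hemidesmosome integrin, rose from 153.4 ± 3.73 to 300.2 ± 14.5 CPM, and Ly6a fell from 528.2 ± 40.3 to 309.4 ± 22.7 CPM. Among 14 genes of mTEC-hi maturation 2 were higher, the share of all genes, 4 lower and 8 did not pass (median -0.14). Hdc, which makes histamine, stood at 1539, 1487 and 1318 CPM in the controls and at 613.9, 492.1 and 456.7 CPM in the cKO (-1.48, SE 0.11, adjusted p = 1.63e-05). The costimulator Cd86 (46.7 ± 14.0 to 14.8 ± 3.32 CPM) and the chemokine Ccl22 (402.5 ± 132 to 138.8 ± 44.9 CPM) fell as well. Aire fell from 1033, 1047 and 1018 CPM to 766.1, 826.8 and 767.0 CPM (-0.39, SE 0.07, adjusted p = 0.00294), beside Dnmt3l, which overlaps it on the other strand and was higher (38.9 to 66.3 CPM, adjusted p = 0.00851). Fezf2 rose from 557.1, 559.3 and 659.2 CPM to 865.3, 972.4 and 922.0 CPM (0.64, SE 0.09, adjusted p = 6.55e-04). Of 14 genes of thymic epithelial identity 3 were higher and 4 lower (2 without cKO B), with Irf8 falling from 527.4 ± 16.3 to 342.0 ± 26.2 CPM.

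Many markers of the specialised mTEC types that resemble cells of other epithelia were lower. Summed levels were 674.9 to 984.1 CPM in the controls and 441.7 to 573.7 CPM in the cKO for tuft cell genes. They were 4641 to 5153 against 3871 to 4295 CPM for microfold cell genes. For ciliated cell genes they overlapped, 245.6 to 293.1 against 221 to 252.2 CPM. Of 15 tuft cell genes 10 were lower and 0 higher (median -0.89). Trpm5, a taste channel, stood at 76.8, 94.7 and 135.0 CPM in the controls and at 59.1, 44.7 and 38.8 CPM in the cKO, and Chat, which makes acetylcholine, fell from 13.3 ± 3.68 to 2.65 ± 1.06 CPM (adjusted p = 0.00118). Pou2f3, the transcription factor that defines tuft cells, did not pass (0.20, adjusted p = 0.21), nor did Dclk1 (-0.25, adjusted p = 0.271). Of 13 microfold cell genes 5 were lower and 1 higher (0 without cKO A or control B), with a median of -0.19. Gp2, an uptake receptor of these cells, went from 272.6, 544.2 and 687.7 CPM to 157.1, 133.2 and 173.4 CPM, and the chemokine Ccl20 from 282.2 ± 34.7 to 73.7 ± 8.04 CPM. Of the factors of these cells Sox8 fell (-0.94, adjusted p = 0.00865) and Spib did not pass (0.15, adjusted p = 0.288). Of 14 ciliated cell genes 8 were lower and 1 higher (median -1.41), with 4 lower without cKO B or control B. Mcidas, which starts the multiciliated program, fell from 16.1 ± 6.18 to 3.34 ± 1.58 CPM, and Foxj1, its partner in that program, did not pass (0.21, adjusted p = 0.234).

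Many tissue genes that Aire or Fezf2 are known to sustain were lower. Of 12 examples of Aire-dependent genes 9 were lower and 1 higher (median -1.15, against 14.3% lower of all genes tested). The list was chosen with earlier results of these data known, so the count describes its members only. Sst, somatostatin, fell from 30.8 ± 3.76 to 8.36 ± 1.82 CPM, Ppy, pancreatic polypeptide, from 42.8, 34.1 and 50.5 to 17.1, 22.1 and 13.7 CPM, and Ins2, insulin, from 30.1, 36.6 and 28.0 to 13.8, 14.5 and 13.9 CPM. Calb1, a calcium-binding protein of neurons and kidney, went the other way, from 30.3 ± 3.93 to 158.9 ± 41.1 CPM (2.39, adjusted p = 1.63e-05). Of 16 examples of Fezf2-dependent genes 7 were lower and 3 higher (median -0.36), and their summed level overlapped, 1515 to 1729 CPM in the controls and 1463 to 1876 CPM in the cKO. Ttr, transthyretin, fell from 33.4 ± 5.94 to 3.43 ± 2.48 CPM, and Coch, an inner ear protein, rose from 124.1, 142.2 and 102.9 to 314.7, 279.0 and 216.7 CPM. By organ, 7 of 14 pancreas, 10 of 19 liver, 9 of 17 intestine, 7 of 21 keratinocyte (11 without cKO B) and 6 of 17 brain genes were lower. Summed levels overlapped for pancreas (506.1 to 576.9 CPM in the controls, 377.5 to 587.3 CPM in the cKO). They were lower in the cKO for liver, intestine and keratinocyte genes, and higher for brain genes (728.4 to 754 against 881.3 to 995.8 CPM). Fabp1, a fatty acid carrier of gut and liver, fell from 42.3 ± 4.72 to 10.7 ± 0.896 CPM, and Krtdap, of differentiating keratinocytes, from 171.3, 183.3 and 263.4 to 53.3, 83.4 and 83.9 CPM. Higher genes were 1 each in pancreas, liver and intestine (2 without control C, control A, and cKO C or control C respectively) and 1 in skin (0 without cKO B, cKO C, control A or control C, 2 without cKO A). Reg1, an acinar secretory protein, rose from 56.6 ± 7.88 to 298.6 ± 101 CPM. In brain 6 were higher, such as Stmn2, a neuronal tubulin regulator (10.2 ± 1.77 to 36.2 ± 8.63 CPM). Of 16 muscle genes 5 were higher, led by the intermediate filament gene Des (40.2 ± 3.54 to 224.6 ± 18.3 CPM), and 3 without cKO A or control C, and 1 lower (2 without these). Beside Des, Acta2, the actin of smooth muscle and a member of the fibroblast and vessel list given above, rose (138.1 ± 5.93 to 499.0 ± 158 CPM). Of the same list Lum rose (5.31 ± 1.27 to 38.3 ± 7.21 CPM) and Col3a1 averaged 45.2 ± 24.1 and 21.9 ± 2.01 CPM. The part of other cells in these values was not tested.

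Most immediate-early genes were higher, and about as many interferon-induced genes were lower as did not pass. Of 14 immediate-early and stress genes 12 were higher, 0 lower and 2 did not pass (median 0.88). Fos averaged 557.9 ± 74.2 against 1288 ± 386 CPM, and Egr1 went from 552.0, 656.5 and 559.4 to 1386, 851.1 and 1387 CPM. Within the cKO library B was the lowest for Egr1 and for Jun (1551, 902.2 and 1595 CPM). These genes are also known to respond to tissue handling, and the summed level of the list was 5442 to 6641 CPM in the controls and 11330, 7352 and 12660 CPM in cKO A, B and C. Their part in other results was not tested. Of 19 interferon-stimulated genes 10 were lower, 1 higher and 8 did not pass (median -0.44). Rsad2, an antiviral radical SAM enzyme, fell from 54.0, 50.7 and 51.0 to 19.1, 11.5 and 17.3 CPM and Irf7, a factor that amplifies interferon, from 256.8 ± 20.1 to 125.4 ± 9.95 CPM. Of 18 cell cycle genes 7 were higher and 1 lower (0 without cKO B), the higher ones mostly of DNA replication, such as Mcm5 (55.8 ± 6.65 to 89.9 ± 4.89 CPM), Rrm2 (39.9 ± 2.69 to 74.2 ± 12.1 CPM) and Pcna (57.4, 54.2 and 62.0 to 88.1, 77.8 and 82.2 CPM).

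**Figure D5:**
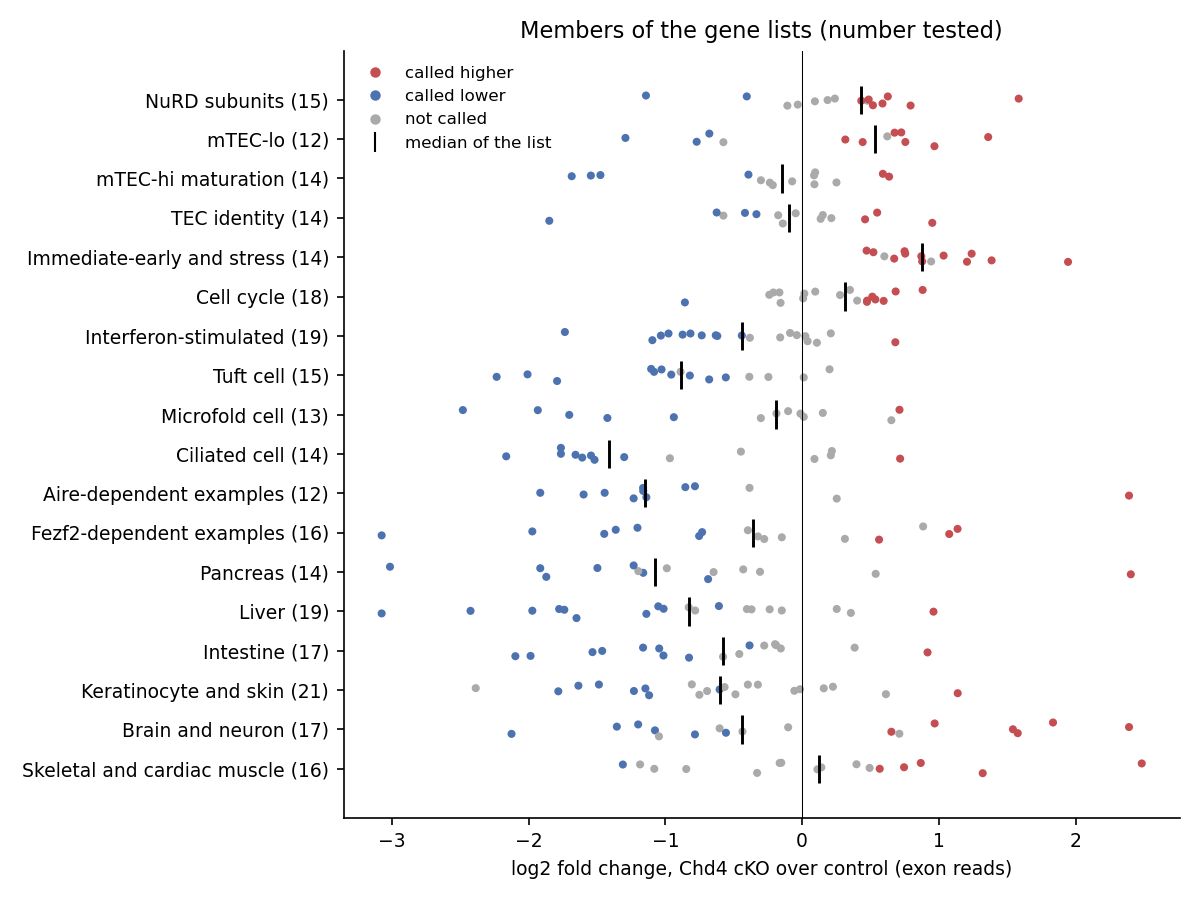
Each point is a member of a gene list that passed the filter, placed by its log2 fold change in exon reads, cKO over control, with red for higher, blue for lower and grey for genes not called, and a black bar at the list's median. Immediate-early genes lie to the right (median 0.88) and tuft, ciliated and Aire-dependent genes mostly to the left (medians -0.89, -1.41 and -1.15).

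The 2 other knockouts of the series have controls of their own, so shared calls do not rest on shared samples. Of the 1972 genes lower in the Chd4 cKO and tested in the Aire experiment, 471 (23.9%) were also lower in the libraries labelled Aire KO, where 9.7% of all genes tested in both were. That experiment alone had 1401 lower (9.37%) and 856 higher genes (5.73%) of 14949. These 471 made up 34.8% of the 1352 genes lower there. In the Fezf2 experiment 119 of 2112 (5.63%) were also lower, against 2.42% of all, and made up 33.9% of the 351 genes lower there. That experiment alone had 376 lower (2.4%) and 389 higher genes (2.48%) of 15695. Genes lower in the Chd4 cKO were also more often among the higher genes of those experiments than all genes were, 201 (10.2% against 5.62%) in the libraries labelled Aire KO and 93 (4.4% against 2.5%) in the Fezf2 KO, or 25.7% and 25.6% of the genes higher there. Among higher genes of the Chd4 cKO 5.64% were higher and 8.94% lower in the libraries labelled Aire KO, and 3.13% each in the Fezf2 KO. Sst had a mean of 17.2 CPM in WT libraries of the Aire experiment and of 0 CPM in its libraries labelled Aire KO. Hdc was lower in the Chd4 cKO and the Fezf2 KO (-1.11, adjusted p = 0.0233) and higher in the libraries labelled Aire KO (0.72, adjusted p = 3.88e-04). Calb1, higher here, was lower in the libraries labelled Aire KO (-1.93, adjusted p = 1.91e-04). Snhg11 did not pass in either (0.07, adjusted p = 0.939, and -0.25, adjusted p = 0.74). The overlap was not tested.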

How the data were processed

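Reads in exons per gene were deposited by the authors as counts, per the file headers. The submitters' processing notes name DESeq2 and the builds mm10 and GRCm38. The aligner, strand and handling of reads with several positions: not given in the sources used here. Per the labels, total RNA was made into SMART-seq v4 Ultra Low Input libraries. Libraries A, B and C are named by barcode order. A further 216 columns of per-library values, intron and junction reads among them, are not used in any value given here: the column names, those of exon reads too, tie a column to a group and not to a sample, so 1 measure per library was kept. A first fit of intron and unique reads is not reported. In the Chd4 experiment 25 symbols that had turned into dates were restored by gene ID, and starts were raised by 1 to count from 1.

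Exon counts of the 6 libraries were fitted in edgeR 4.0.16 (R 4.3.3) with TMM, filterByExpr and the quasi-likelihood test, with a Benjamini-Hochberg adjusted p under 0.05 as the threshold. The Aire and Fezf2 experiments were each fitted on their own in the same way. All adjusted p-values are from edgeR unless DESeq2 is named. DESeq2 1.42.0, other filters, thinning and leaving out each library were the alternatives. Intervals and floors cover counting error only, since no molecular identifiers are given. On simulated counts 47 of 50 genes raised and 44 of 50 lowered 2-fold were recovered among 15093 genes, and 10 of 201 calls were false. The changed genes were drawn only from genes with many reads, so recovery of genes near silence was not measured.

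Named were the targeted genes, up to 10 gained and lost genes by level, the 8 largest changes and 5 most abundant genes of each direction changed in degree and up to 4 called members of each of 42 gene lists, predicted genes skipped. Genes named beside these were named after their values were seen, among them 3830403N18Rik, Foxn1, Hdac1, Hdac2, Chd3, Mta2, Mta3, Rbbp7, Krt14, Pou2f3, Dclk1, Sox8, Spib, Foxj1, Ppy, Ins2, Coch, Egr1, Jun, Pcna, Col9a3 and Dnmt3l. Members and lists were chosen with earlier results of these data known.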

Additional observations from a re-analysis of the deposited data

How the results depend on the processing

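No called gene turned to the opposite direction with any 1 library left out, and 1534 to 1780 of the 2164 higher and 1479 to 1662 of the 2175 lower genes were still called. Tested against a 2-fold change, 165 genes were higher and 206 lower. The classes at the edge of silence depended on the limit and the filter. Gained genes numbered 20 with DESeq2, 37 with no filter on low counts, 25 with at least 1 CPM in 3 libraries, 8 with libraries thinned to equal depth, 5 and 30 with a limit of 0.25 and 1 CPM and 5 with at most 3 reads over the control group. Lost genes numbered 132, 175, 92, 17, 6, 82 and 1 under the same settings. With limits of 0.25 and 1 CPM, and over all rows, 15 and 74 genes were near silence in the controls and at 2 CPM or more in the cKO, and 26 and 315 the reverse. With 1 library left out, gained genes numbered 7 to 24 and lost genes 45 to 75. Other filters let more silent genes be tested. At the lowest depth 3 reads are 0.84 CPM, above the limit that sets these classes. Counts over gene lists that moved by over 1.5 times with DESeq2, other filters or thinning moved by 1 gene, except for silencing factors (6 higher with no filter), p53 targets (3 lower with no filter or thinning), neuroendocrine genes (3 lower with thinning), dendritic cell and macrophage genes (2 lower with DESeq2 or thinning) and Y-linked genes (4 lower with no filter). The planned comparison with intron reads and the alternative on unique reads are not reported, because the column names tie a column to a group and not to a sample, which leaves 1 measure for each library. No paired analysis was possible because the columns of the counts carry no replicate number.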

Other observations

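Members of some pathways and organs not described above were read on the same fit. Of 11 genes of class II histocompatibility molecules and their loading, 2 were higher and 3 lower. Without any library other than control C 0 to 1 were higher, and without cKO C or control A 1 was lower. The 3 lower were H2-Ob (-0.58), the invariant chain gene Cd74 (-0.32) and the cathepsin gene Ctss (-1.08). Of these only H2-Ob is a class II gene of the complex. The summed level of the list overlapped, 49230 to 55210 CPM in the controls and 47020 to 52370 CPM in the cKO. Of 17 genes of the NF-kB and TNF receptor pathway, which drives mTEC development, 1 was higher and 1 lower (2 higher with DESeq2, no filter or thinning, and 2 lower without control C). Of 12 cortical epithelial genes, from cells that Foxn1-Cre also reaches, 2 were higher and 2 lower (5 higher and 1 lower without cKO B, 1 lower without cKO C or control C). Of 12 lung genes 3 were higher and 4 lower. A list of globin genes that also holds Alas2, which is not a globin, had 5 of 8 lower and 0 higher. Without control B 3 were lower. Alas2 was 1 of the 5 (-0.85), and the globins are near copies of each other. Of 6 kidney genes 1 was higher and 2 lower (1 lower without cKO A, control B or control C), the higher one Umod, the main protein of urine, which rose by 2.68 on the log2 scale. Of 11 pituitary, thyroid and adrenal genes 2 were lower, among them Pomc, the precursor of corticotropin (-1.52), and 0 higher.

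Neuroendocrine genes, which mark another specialised mTEC type, were 5 lower and 1 higher of 14 tested (2 or 3 lower without cKO A, cKO C, control A or control C, and 2 higher without control A). Their summed level overlapped, 353.5 to 415.9 CPM in the controls and 366.8 to 421.9 CPM in the cKO. Scg2, a secretogranin of hormone granules, fell from 20.3 ± 7.57 to 5.93 ± 2.13 CPM, and Syt13, a synaptotagmin, rose from 34.8 ± 7.40 to 78.4 ± 1.18 CPM. Of 16 p53 targets 6 were lower and 1 higher (2 or 3 lower without any library other than control A, and 0 higher without cKO B). Cdkn1a, the cell cycle inhibitor p21, fell from 202.5 ± 10.9 to 108.0 ± 14.7 CPM, and Perp, a desmosome protein of stratified epithelia, from 487.5 ± 66.2 to 312.7 ± 47.5 CPM. Of 4 linker histone genes tested H1f0 rose (428.2 ± 27.6 to 591.1 ± 40.3 CPM) beside the gained H1fx, and Hist1h1c fell (95.5 ± 23.2 to 63.6 ± 8.83 CPM), a call lost without cKO A, cKO B, control B or control C. Of 10 salivary gland and milk genes 3 were lower and 0 higher, of 8 eye genes 0 and 1 (2 higher without control C), of 13 class I histocompatibility genes 1 and 1 (0 higher without cKO B, cKO C, control A or control B), and of 9 neural crest and stem cell factors 2 and 3. Of 27 Hox genes 7 passed the filter, with 1 lower and 0 higher, and the lower call was lost with DESeq2 and without any library other than cKO B.

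Genes of testis and germ cells that were listed with earlier results in view were more often lower than higher. Of 19 such genes 8 passed the filter, with 1 higher and 4 lower (0 higher without cKO B, 1 to 2 lower without cKO A, cKO B, control A or control C), and their summed level was 145.2 to 184.8 CPM in the controls and 109.8 to 115 CPM in the cKO.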
